A study of Mus musculus with 19 samples.

Results

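The EGF family ligands *Areg*, *Ereg*, *Hbegf* and *Tgfa*, the receptors *Egfr*, *Erbb2* and *Erbb3*, and the receptor inhibitor *Errfi1* were followed by name through RNA-seq of neoplastic cells sorted from mouse lung tumors. Of these 8 genes, 7 had a row under their own symbol among the 53558 rows of the gene tables, and *Areg* was found inside a row labelled *Mcub*. All mice carried *Rosa26*LSL-tdTomato and *H11*LSL-Cas9 on a mixed C57BL/6J:129 background and were 6 to 12 weeks old when tumors were initiated. One intratracheal lentivirus delivered Cre together with sgRNAs, so that infected cells switched on the tdTomato reporter and Cas9, and cut the sgRNA targets. Lenti-sgInert/Cre carried control sgRNAs (7 libraries), Lenti-sgCebpa/sgCebpb/sgCebpd/Cre targeted 3 C/EBP transcription factor genes at once (sgCebpa/b/d, 7 libraries), and Lenti-sgLkb1/Cre targeted *Lkb1*, whose mouse symbol is *Stk11* (sgLkb1, 5 libraries). Tumors grew for 17 weeks, and cells were sorted as negative for CD45, CD31, F4/80, Ter119 and DAPI. The promoter that drove Cre is not given in the sources used here, and the edited alleles of a sorted population need not be the same from cell to cell. The comparisons ask how loss of the C/EBP factors or of LKB1 changed expression in these tumors.

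EGF family ligands are made as membrane-anchored precursors and are released by proteases of the ADAM family. They bind ERBB receptors, which pair on ligand binding, phosphorylate one another and signal through adaptors such as GRB2 and SHC1 to ERK. *Errfi1* encodes MIG6, an intracellular inhibitor of EGFR and ERBB2 that ERK signaling itself induces. In the lung, this pathway takes part in alveolar repair and in tumor growth.

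Expected counts summed to between 2760731 and 9944134 per library. *Stk11* stood at 7.525 to 12.5 CPM (expected counts scaled to a common library size) in the 5 sgLkb1 libraries and at 19.5 to 22.9 CPM in the 7 sgInert libraries. In libraries labelled sgCebpa/b/d, *Cebpa* was at 71.9 to 125.4 CPM against 42.7 to 68.9 in sgInert, higher without overlap, and *Cebpb* was at 3.98 to 23.6 against 3.06 to 6.58. *Cebpd* was at 55.03 to 166.4 against 43.02 to 121.5 over all libraries, but among MT-numbered libraries it was lower without overlap, at 55.03 to 80.9 against 110.6 to 121.5. Cas9 cuts leave small insertions and deletions that need not lower a transcript, so these levels are no check of the editing, and every direction for sgCebpa/b/d below rests on the label. The sorted cells had the RNA of alveolar type II (ATII) cells, as the summed CPM of 8 ATII markers was 45560 to 56420 in sgInert, 27410 to 36040 in sgLkb1 and 26220 to 49030 in sgCebpa/b/d libraries. Within sgCebpa/b/d this sum was 43660 to 49030 in MT-numbered and 26220 to 34450 in the other libraries. Summed CPM of 5 alveolar type I (ATI) markers was 360 to 549.3 in sgInert, 542.3 to 673.7 in sgLkb1 and 647.8 to 1210 in sgCebpa/b/d. The part of these shifts in the levels below was not tested. Library titles fall into a ZR series (4 sgInert), an MT series (3 sgInert, 4 sgCebpa/b/d and 3 sgLkb1) and titles with no animal number (3 sgCebpa/b/d and 2 sgLkb1). Summed CPM of 5 endothelial markers reached 147.6 to 207.1 in the unnumbered sgCebpa/b/d and 84.2 to 145.5 in the unnumbered sgLkb1 libraries, against 5.82 to 70.1 in all others. Summed immune markers behaved alike, at 24.6 to 63.6 in the unnumbered libraries and 4.34 to 17.9 in the others. Each result below is therefore also given among the 10 MT-numbered libraries where it differs. Those libraries were not alike in fibroblast RNA. Their sgInert members had at most 16.3 summed CPM of 5 fibroblast markers. Every MT-numbered sgLkb1 library had at least 63.6, and every MT-numbered sgCebpa/b/d library at least 44.3. How much fibroblast RNA adds to the MT-numbered differences was not tested. In sgInert and sgCebpa/b/d, but not in sgLkb1, the MT animal numbers recur in the study among mice that received less virus. The paper states a single dose per mouse for the sgInert, sgCebpa/b/d and sgLkb1 viruses of this comparison. Whether virus dose nonetheless differed between the MT-numbered groups could not be settled. Some MT-numbered libraries came from the same mouse (2 sgInert, 2 sgLkb1 and 3 sgCebpa/b/d libraries, 1 mouse per group). The MT-numbered libraries of each group thus came from only 2 mice. Throughout, n counts libraries and p-values measure the spread between libraries. All 5 sgLkb1 libraries came from females, as did the 4 MT-numbered sgCebpa/b/d and 3 of 7 sgInert libraries, while the 3 unnumbered sgCebpa/b/d libraries came from males. In bulk RNA, fewer cells of a type cannot be told apart from less RNA per cell.

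*Areg* encodes amphiregulin, a ligand of EGFR. No row carried its symbol, but its single transcript in the GENCODE M21 annotation, of 1215 bases, was listed in the row labelled *Mcub* beside 4 *Mcub* transcripts of 365 to 1318 bases. The mean transcript length that RSEM gave for this row was 1213.87 to 1215.82 bases, and within 0.005 bases of 1215 in 9 of 19 libraries. A mixture of longer and shorter *Mcub* transcripts could give the same mean, so the row is called the *Areg* row here and its values are kept out of the counts over the 7 named genes. *Areg* lies at chr5:91139599-91148432 on the plus strand of GRCm38, and *Mcub* on chromosome 3. The row was identified after its values could be seen.

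The 250 bases before the RefSeq start site of *Areg* are shown because the *Areg* row was the only one of the 8 genes past an adjusted p of 0.05 between sgLkb1 and sgInert, with the corresponding stretch of *Errfi1*, in which the same element occurs, beside it. Capitals mark the cAMP response element (CRE, TGACGTCA) and its short form (TGACG on either strand).
*Areg*, chr5:91139349-91139598, plus strand, GRCm38.p6: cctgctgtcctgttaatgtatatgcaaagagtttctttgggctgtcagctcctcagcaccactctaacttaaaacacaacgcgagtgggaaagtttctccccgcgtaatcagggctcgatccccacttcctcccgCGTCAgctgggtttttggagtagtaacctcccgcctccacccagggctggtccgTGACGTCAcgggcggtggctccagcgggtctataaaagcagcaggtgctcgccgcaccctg
*Errfi1*, chr4:150854820-150855069, plus strand, GRCm38.p6: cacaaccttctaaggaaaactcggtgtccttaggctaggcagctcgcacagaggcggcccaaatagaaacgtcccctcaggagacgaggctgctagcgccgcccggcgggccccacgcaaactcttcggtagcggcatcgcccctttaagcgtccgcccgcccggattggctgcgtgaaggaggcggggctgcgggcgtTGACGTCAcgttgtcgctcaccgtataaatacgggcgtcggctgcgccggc
The full CRE spans bases 61 to 54 before the start of *Areg* and bases 51 to 44 before this start of *Errfi1*, and *Areg* has a separate short form at bases 115 to 111. Of 32851 RefSeq promoter stretches of this length, 1.55% held the full CRE and 17.8% held the short form, a count that includes every full site. Of the 8 genes, promoters were found for *Areg*, *Tgfa*, *Egfr*, *Erbb2* and *Errfi1* (2 starts). The short form also occurred in *Erbb2*, and the first *Errfi1* start, *Tgfa* and *Egfr* held neither form. An AP-1 site (TGANTCA, 6.75% of all stretches) and a C/EBP site (TTGCNNAA, 9.56%) occurred in none of these 6 stretches, searched on both strands. Outside the 8 genes, the short form also occurred before the ligand genes *Epgn* (bases 101 to 97) and *Btc* (bases 113 to 109). Letters in a sequence do not show that a factor binds there.

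Levels per transcript length were compared within a library on the TPM scale, which corrects for gene length. *Errfi1* and the *Areg* row were the most abundant of the 8 genes, at median TPM of 398 and 226 in sgInert, 340 and 276 in sgCebpa/b/d, and 510 and 531 in sgLkb1. *Errfi1* ranked first in 15 and the *Areg* row in 4 of 19 libraries, and the ranges of the pair overlapped in every group. *Ereg* (epiregulin, a ligand of EGFR and ERBB4) and *Hbegf* (heparin-binding EGF-like growth factor) followed, at medians of 108 and 67.3 TPM in sgInert. Their ranges overlapped in sgInert and sgCebpa/b/d but not in sgLkb1.

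The receptors and *Tgfa* made up the rest of the order. *Erbb3*, which encodes a receptor with little kinase activity of its own, was the highest receptor at medians of 26.8 to 33.7 TPM. *Erbb2*, which encodes a receptor without a known ligand, had medians of 8.42 to 10.6 TPM. *Egfr*, the receptor of all 4 ligands, ranked last in all 19 libraries, at 0.51 to 4.98 TPM. *Tgfa* (transforming growth factor alpha) was the lowest ligand, at medians of 13.8 to 19.6 TPM. It lay above *Erbb2* without overlap in sgInert and sgLkb1, and the 2 ranges overlapped in sgCebpa/b/d. *Egfr* values rested on 27 to 328 counts, and the mean transcript length RSEM assigned to it ran from 3269 to 10208 bases, so its TPM also moved with the isoforms chosen.

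**Figure D1:**
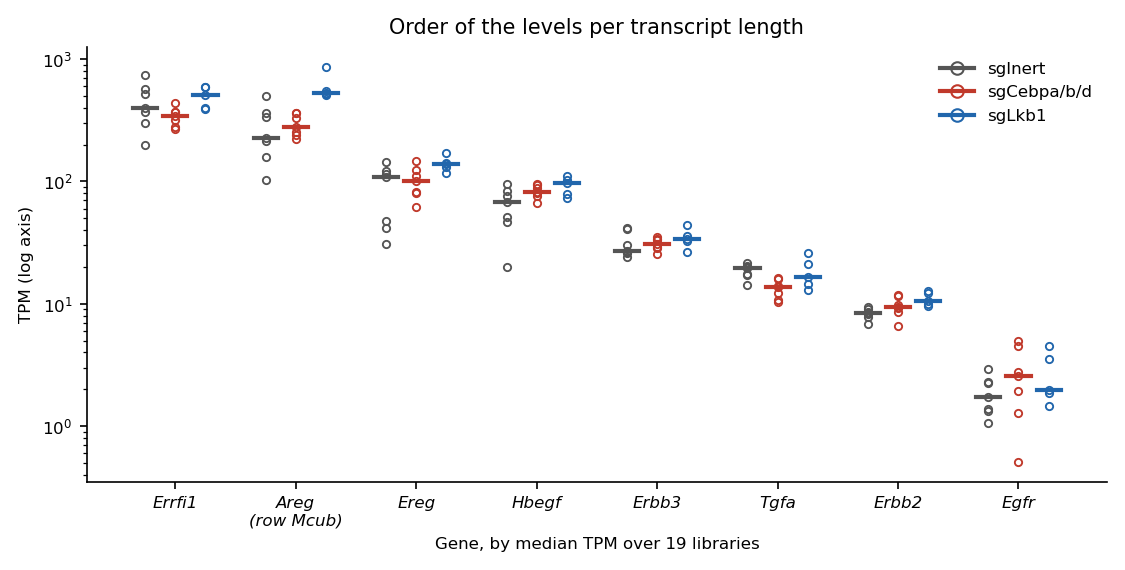
TPM of each gene on a log axis, ordered by the median over 19 libraries; each circle is a library, bars are group medians and colors are the virus groups. The *Areg* row and *Errfi1* lie highest and *Egfr* lies lowest in all 3 groups.

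Differences between groups were tested with edgeR's quasi-likelihood test over all 13986 genes that passed a filter on low counts, and all 7 named genes and the *Areg* row passed it. Calls needed both a p under 0.05 after Benjamini-Hochberg adjustment and a log2 fold change beyond 1 in either direction (the fold threshold). None of the 7 named genes was called in sgCebpa/b/d against sgInert, where 4.65% of all genes were. None was called in sgLkb1 against sgInert (3.01% of all genes) or in sgCebpa/b/d against sgLkb1 (2.8% of all genes). DESeq2 and limma-voom called 0 of 7 in each comparison as well. Of all 13986 genes, DESeq2 called 809, 583 and 507 in the 3 comparisons, and limma-voom called 538, 458 and 451. At an unadjusted p under 0.05 edgeR gave 1 of 7 in the first comparison and 0 of 7 in the others. DESeq2 gave 2, 1 and 0, limma-voom gave 2, 2 and 0, and limma on log2(TPM + 1) gave 2, 3 and 2. The share of all genes under that unadjusted threshold was not taken, so these counts cannot be set against it. At an adjusted p under 0.05 with no fold threshold, 1 of 7 passed in sgCebpa/b/d against sgInert, where 10.1% of all genes did, and that gene was *Tgfa*. No gene passed in the other comparisons, where 5.78% and 5.96% of all genes did. The median log2 fold change of the 7 genes was 0.19, 0.13 and −0.05, beside 0.02, −0.01 and 0.03 over all genes. In none of the 7 did the libraries of both groups lie apart, against 3.37%, 4.15% and 5.08% of all genes. The first and second comparisons share the sgInert libraries and are not independent.

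**Figure D2:**
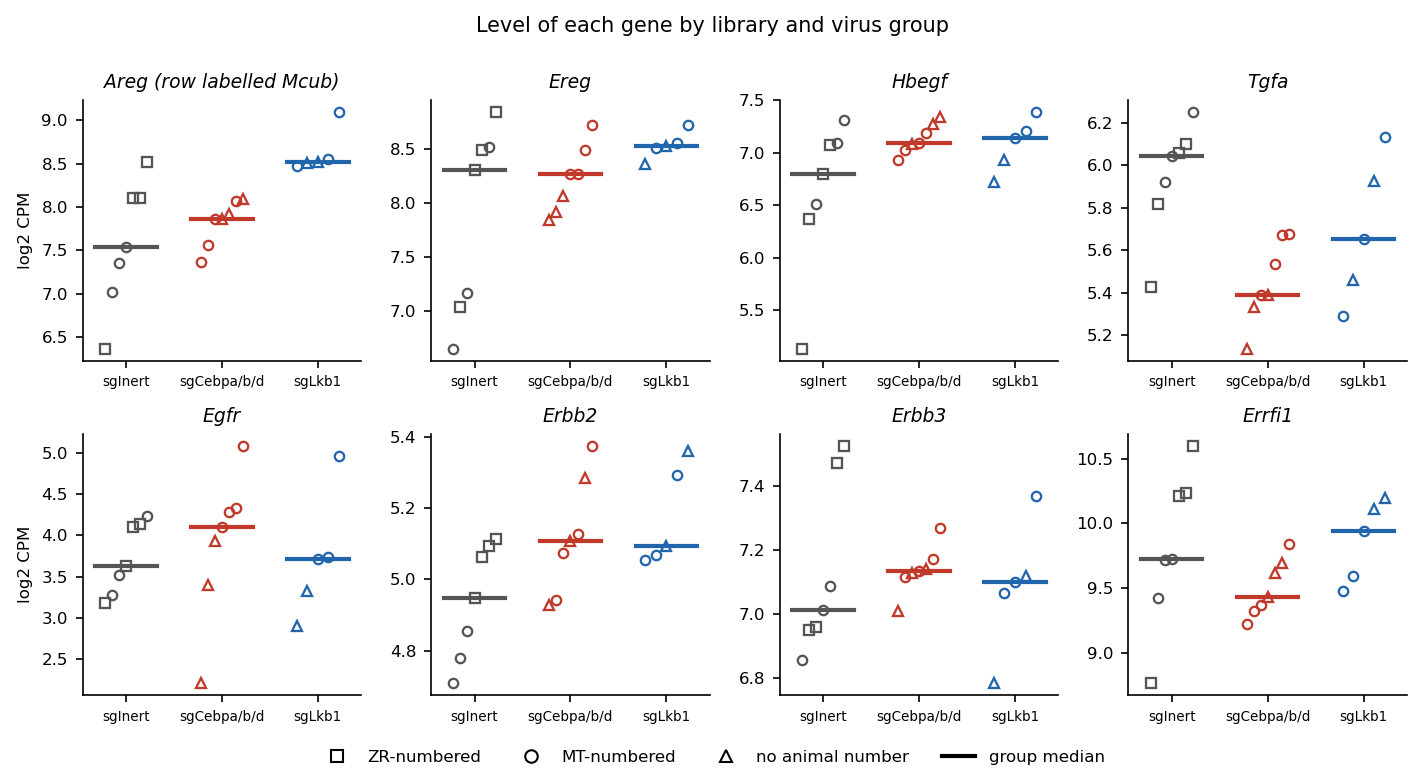
Log2 CPM of the 8 genes in each library by virus group; squares, circles and triangles are ZR-numbered, MT-numbered and unnumbered libraries, and bars are group medians. The sgLkb1 libraries of the *Areg* row lie at 8.48 to 9.10, and sgInert is the most spread group for *Areg*, *Ereg*, *Hbegf*, *Erbb3* and *Errfi1*.

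The *Areg* row was higher in sgLkb1 libraries. Its log2 CPM was 8.52, 8.55, 8.48, 9.10 and 8.50 in the 5 sgLkb1 libraries. In sgInert it ran from 6.36 to 8.52 with a median of 7.54, and in sgCebpa/b/d from 7.36 to 8.09 with a median of 7.86. One sgInert library (replicate 4, at 8.52) reached into the sgLkb1 range, and no sgCebpa/b/d library did. The log2 fold change against sgInert was 0.93 (standard error, SE, 0.25, 95% interval 0.41 to 1.45, edgeR adjusted p = 0.0277), a 1.91-fold difference that stayed below the fold threshold. Among MT-numbered libraries, 8.48 to 9.10 in sgLkb1 lay apart from 7.02 to 7.54 in sgInert, as did 23.3% of all genes. There the log2 fold change was 1.41 (SE 0.20, edgeR adjusted p = 0.000578) and the row was called, as were 3.77% of genes. With libraries of an animal summed the value was 0.92 (edgeR adjusted p = 0.0975), over a range of 0.000578 to 0.203 for the adjusted p in 14 alternatives. The adjusted p also rose above 0.05, to at most 0.0895, without sgInert replicate 2, 5 or 7 or without sgLkb1 replicate 2 or 4.

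Against sgCebpa/b/d, the *Areg* row of sgLkb1 libraries lay apart from every library, as did 5.08% of all genes. The log2 fold change, taken as sgCebpa/b/d minus sgLkb1, was −0.82 (SE 0.25, 95% interval −1.33 to −0.30, edgeR adjusted p = 0.0565). It was −1.01 (edgeR adjusted p = 0.00385) among MT-numbered libraries, where 3.65% of genes were called. Among unnumbered libraries it was −0.57 (edgeR adjusted p = 0.0315). In that subset 388 of 14314 genes were called, and the groups also differed in sex, which cannot be told apart from the virus. An adjusted p of 0.05 was passed in 9 of 15 alternatives. sgCebpa/b/d differed from sgInert by 0.12 (95% interval −0.36 to 0.60, edgeR adjusted p = 0.82), with all 7 sgCebpa/b/d libraries inside the sgInert range. Among MT-numbered libraries that difference was 0.40 (95% interval 0.003 to 0.80, edgeR adjusted p = 0.239). There sgCebpa/b/d, at 7.36 to 8.07, overlapped sgInert, at 7.02 to 7.54. Mesothelial markers were also higher in sgLkb1, with a summed CPM of 6.90 to 21.1 in sgLkb1 against 0 to 3.45 in sgInert and 0 to 4.57 in sgCebpa/b/d. *Msln* gave most of this sum in each sgLkb1 library, and the defining mesothelial markers *Wt1* and *Upk3b* had at most 2 counts in any library. The fourth marker, *Lrrn4*, had 24 counts in sgLkb1 replicate 5, 10 in sgCebpa/b/d replicate 6 and at most 1 elsewhere. The part of mesothelial RNA in the *Areg* row was not tested.

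*Ereg* had its widest spread in sgInert, where log2 CPM ran from 6.64 to 8.85 with a median of 8.31. The 5 sgLkb1 libraries were at 8.53, 8.52, 8.56, 8.73 and 8.37, and sgCebpa/b/d ran from 7.84 to 8.73 with a median of 8.27. Both groups lay within the sgInert range. *Ereg* differed from sgInert by 0.48 in sgLkb1 (95% interval −0.11 to 1.07, edgeR adjusted p = 0.398) and by 0.19 in sgCebpa/b/d (95% interval −0.36 to 0.73, edgeR adjusted p = 0.736). The 3 sgInert libraries below 7.2 (replicates 5, 6 and 7) were also the lowest 3 of the group for the *Areg* row. Among MT-numbered libraries the differences were 0.93 in sgLkb1 (edgeR adjusted p = 0.113) and 0.77 in sgCebpa/b/d (edgeR adjusted p = 0.164). Between sgCebpa/b/d and sgLkb1 the difference was −0.29 (95% interval −0.88 to 0.30, edgeR adjusted p = 0.648), and −0.53 (edgeR adjusted p = 0.0489) among the 5 unnumbered libraries. The latter, where the groups also differed in sex, was the only 1 of 15 alternatives past 0.05.

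*Hbegf* ran from 5.13 to 7.31 log2 CPM in sgInert with a median of 6.80, and from 6.93 to 7.34 in sgCebpa/b/d with a median of 7.09. The sgLkb1 libraries were at 6.72, 7.21, 7.39, 7.14 and 6.94. All groups overlapped, and the sgInert library at 5.13 (replicate 6) stood below all other 18 libraries. Against sgInert the difference was 0.40 in sgCebpa/b/d (95% interval −0.04 to 0.83, edgeR adjusted p = 0.264) and 0.35 in sgLkb1 (95% interval −0.12 to 0.82, edgeR adjusted p = 0.444). The sgCebpa/b/d difference was 0.04 (edgeR adjusted p = 0.925) among MT-numbered libraries. sgCebpa/b/d differed from sgLkb1 by 0.04 (95% interval −0.43 to 0.52, edgeR adjusted p = 0.947).

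*Tgfa* fell in sgCebpa/b/d relative to sgInert. Its log2 CPM ran from 5.14 to 5.68 in sgCebpa/b/d with a median of 5.39, and from 5.43 to 6.25 in sgInert with a median of 6.04. The sgInert library at 5.43 (replicate 6) was the only one of its group inside the sgCebpa/b/d range. The log2 fold change was −0.51 (SE 0.14, 95% interval −0.80 to −0.22, edgeR adjusted p = 0.0203), which is 0.702 of the sgInert level. The adjusted p stayed under 0.05 in all 19 fits that left out a library, at 0.00556 to 0.0485, but in only 8 of 14 other alternatives, where it ran from 0.00606 to 0.283. It did not pass among MT-numbered libraries (3.9% of genes called), where the difference was −0.52 (edgeR adjusted p = 0.0947) and the 4 sgCebpa/b/d libraries (5.39 to 5.68) lay apart from the 3 sgInert libraries (5.92 to 6.25), as did 19.2% of all genes. The 3 unnumbered sgCebpa/b/d libraries, at 5.14 to 5.39, lay at the lower end of their group, and the part of their endothelial and immune RNA in this was not tested.

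In the sgLkb1 libraries *Tgfa* stood at 5.93, 5.65, 5.29, 6.13 and 5.46 log2 CPM. These values spanned most of both other groups. The difference from sgInert was −0.24 (95% interval −0.55 to 0.08, edgeR adjusted p = 0.441), and that of sgCebpa/b/d from sgLkb1 was −0.27 (95% interval −0.59 to 0.04, edgeR adjusted p = 0.359).

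Of the receptors, *Egfr* had the widest intervals. Log2 CPM ran from 3.18 to 4.24 in sgInert with a median of 3.63 and from 2.21 to 5.08 in sgCebpa/b/d with a median of 4.10. The sgLkb1 libraries were at 2.90, 4.96, 3.74, 3.71 and 3.33. Groups overlapped fully, and the difference from sgInert was 0.35 in sgCebpa/b/d (95% interval −0.38 to 1.07, edgeR adjusted p = 0.615) and 0.13 in sgLkb1 (95% interval −0.66 to 0.92, edgeR adjusted p = 0.906). Within sgCebpa/b/d the MT-numbered libraries (4.10 to 5.08) lay above the unnumbered ones (2.21 to 3.93), and the MT-numbered difference from sgInert was 0.81 (edgeR adjusted p = 0.219). The interval in sgCebpa/b/d does not exclude a rise as large as the fold threshold.

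*Erbb2* varied little within a group. It ran from 4.71 to 5.12 log2 CPM in sgInert with a median of 4.95 and from 4.93 to 5.38 in sgCebpa/b/d with a median of 5.11, and stood at 5.09, 5.06, 5.07, 5.29 and 5.36 in sgLkb1. The difference from sgInert was 0.19 in sgCebpa/b/d (95% interval −0.03 to 0.41, edgeR adjusted p = 0.309) and 0.24 in sgLkb1 (95% interval −0.003 to 0.48, edgeR adjusted p = 0.278). Within sgInert the 3 MT-numbered libraries (4.71 to 4.86) lay below the 4 ZR-numbered ones (4.95 to 5.12). Among MT-numbered libraries alone the differences were 0.36 in both groups (edgeR adjusted p = 0.205 and 0.239), and neither group overlapped sgInert, against 19.2% and 23.3% of all genes.

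*Erbb3* differed little between groups. It ran from 6.86 to 7.52 log2 CPM in sgInert with a median of 7.01, from 7.01 to 7.27 in sgCebpa/b/d with a median of 7.14, and stood at 7.12, 7.07, 7.10, 7.37 and 6.78 in sgLkb1. The difference from sgInert was −0.005 in sgCebpa/b/d (95% interval −0.23 to 0.22, edgeR adjusted p = 0.987) and −0.05 in sgLkb1 (95% interval −0.29 to 0.20, edgeR adjusted p = 0.898). Among MT-numbered libraries *Erbb3* of sgCebpa/b/d lay above sgInert without overlap, by 0.17 (edgeR adjusted p = 0.407), where 19.2% of all genes did not overlap. Between sgCebpa/b/d and sgLkb1, *Erbb2* differed by −0.05 (edgeR adjusted p = 0.868), *Erbb3* by 0.04 (edgeR adjusted p = 0.9) and *Egfr* by 0.21 (edgeR adjusted p = 0.824).

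*Errfi1* ran from 8.77 to 10.6 log2 CPM in sgInert with a median of 9.72 and from 9.22 to 9.84 in sgCebpa/b/d with a median of 9.43. The sgLkb1 libraries were at 10.11, 9.59, 9.94, 9.47 and 10.19. The difference from sgInert was −0.40 in sgCebpa/b/d (95% interval −0.82 to 0.02, edgeR adjusted p = 0.236) and −0.02 in sgLkb1 (95% interval −0.48 to 0.43, edgeR adjusted p = 0.973). Without sgInert replicate 6, the lowest library, the sgCebpa/b/d difference was −0.53 (edgeR adjusted p = 0.0445). This was the only 1 of 19 fits leaving out a library that passed the adjusted p threshold. Of the 14 other alternatives, 0 passed it. The MT-numbered difference of sgCebpa/b/d from sgInert was −0.18 (edgeR adjusted p = 0.576). sgCebpa/b/d differed from sgLkb1 by −0.38 (edgeR adjusted p = 0.382), and by −0.59 (edgeR adjusted p = 0.0178) among the 5 unnumbered libraries.

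**Figure D3:**
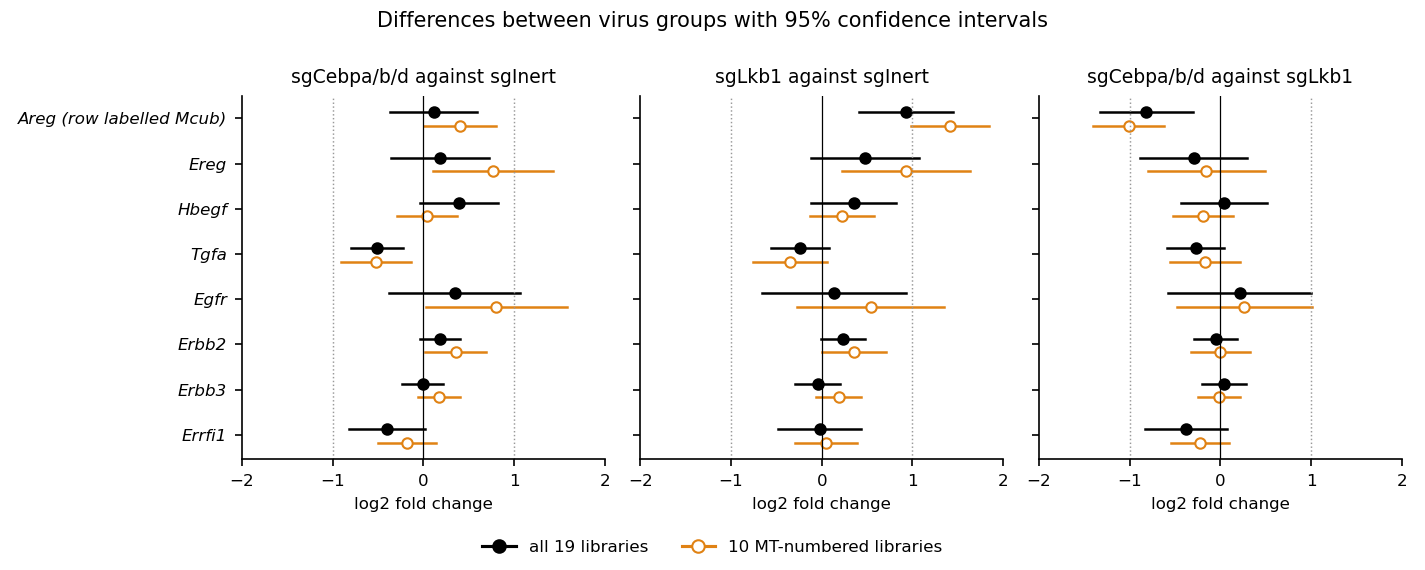
Log2 fold change of each gene with its 95% confidence interval in the 3 comparisons, from all 19 libraries (filled) and from the 10 MT-numbered libraries (open); dotted lines mark the fold threshold. Only the *Areg* row and *Tgfa* have an interval from all libraries that leaves out 0.

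The wider pathway was described with lists of other EGF ligands, neuregulins, receptors, receptor inhibitors and turnover factors, shedding factors, adaptors and ERK feedback genes. Of these 45 genes beside the 8, 41 passed the filter. In sgCebpa/b/d against sgInert 1 was called higher and 1 lower (4.88% of those tested), where 2.65% of all genes were called higher and 2% lower. In sgLkb1 against sgInert 1 was called higher (2.44%) and 0 lower, beside 1.87% and 1.14% of all genes. In sgCebpa/b/d against sgLkb1 0 were called higher and 4 lower (9.76%), beside 1.16% and 1.64%. Their median log2 fold changes were −0.11, 0.005 and −0.04. *Erbb4*, which encodes the remaining ERBB receptor, had 1 count in 1 library and 0 in the other 18, and *Nrg2* and *Nrg3* had 0 in all 19. *Egf* itself had 1 to 25 counts and did not pass the filter.

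**Figure D4:**
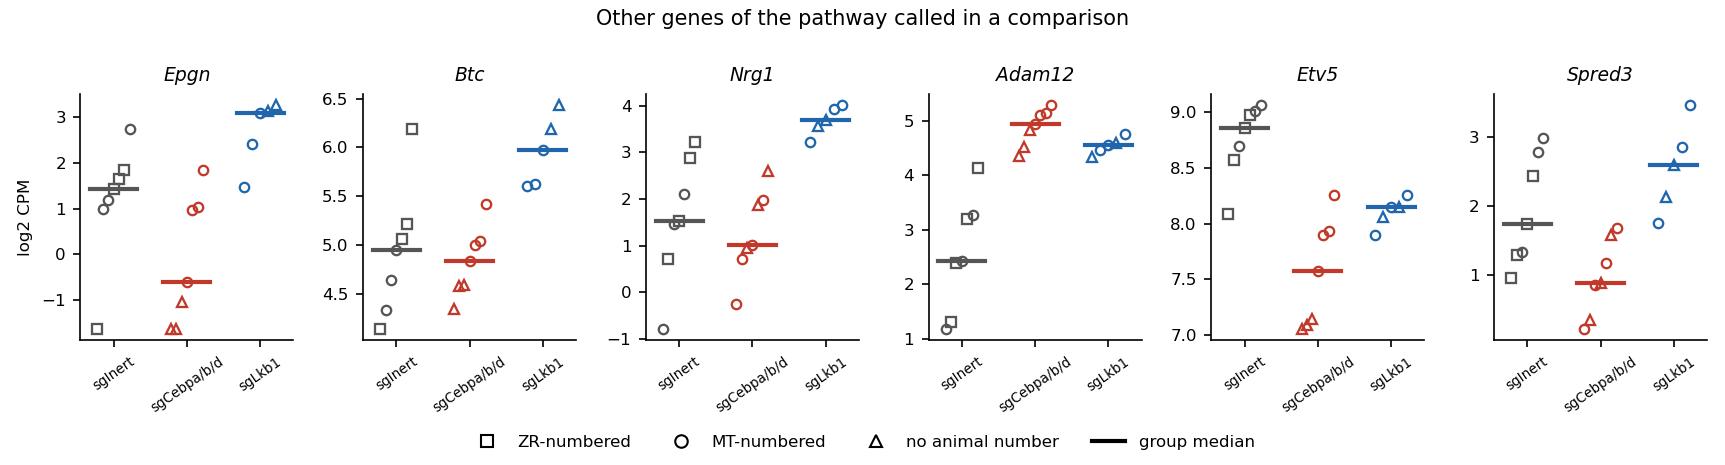
Log2 CPM of the 6 other pathway genes called in at least 1 comparison, by library and virus group, with symbols for the title series and bars for group medians. *Btc*, *Nrg1* and *Spred3* lie higher in every sgLkb1 than in any sgCebpa/b/d library, *Epgn* overlaps, *Adam12* lies lowest in sgInert and *Etv5* has its highest median there.

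Among ligands, *Btc* (betacellulin, a ligand of EGFR and ERBB4) was higher in sgLkb1 than in sgCebpa/b/d. Its log2 CPM in the sgLkb1 libraries was 6.19, 5.61, 5.63, 5.97 and 6.44, and no sgCebpa/b/d library (4.34 to 5.42) reached that range. The log2 fold change of sgCebpa/b/d minus sgLkb1 was −1.15 (SE 0.27, edgeR adjusted p = 0.0118), and −0.68 (edgeR adjusted p = 0.038) among MT-numbered libraries. sgLkb1 was above sgInert by 0.93 (edgeR adjusted p = 0.0445) over all libraries. Among MT-numbered libraries *Btc* was called in this comparison, at 1.08 (edgeR adjusted p = 0.00387), as were 3.77% of all genes. Over all libraries 1 sgInert library at 6.19 lay inside the sgLkb1 range.

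*Nrg1*, which encodes neuregulin 1, a ligand of ERBB3 and ERBB4, was also higher in sgLkb1 than in sgCebpa/b/d, with a log2 fold change of sgCebpa/b/d minus sgLkb1 of −2.35 (SE 0.56, edgeR adjusted p = 0.0126). Its level was 3.57, 4.01, 3.21, 3.92 and 3.68 log2 CPM in sgLkb1 and −0.26 to 2.603 in sgCebpa/b/d, without overlap. Against sgInert (−0.78 to 3.22) the sgLkb1 difference was 1.74 (edgeR adjusted p = 0.0653), and 2.6 (edgeR adjusted p = 0.0388) among MT-numbered libraries. *Epgn* (epigen, a ligand of EGFR) differed between sgCebpa/b/d and sgLkb1 by −2.79 (SE 0.80, edgeR adjusted p = 0.0401), on 0 to 17 against 25 to 81 counts. The ranges of *Epgn* overlapped, and the difference was −1.65 (edgeR adjusted p = 0.192) among MT-numbered libraries. Against sgInert, *Epgn* differed by 1.34 in sgLkb1 (edgeR adjusted p = 0.363) and by −1.46 in sgCebpa/b/d (edgeR adjusted p = 0.261).

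Outside the ligands, *Adam12*, a metalloprotease that can shed *Hbegf* protein, was the gene called against sgInert in both virus groups. It ran from 1.18 to 4.13 log2 CPM in sgInert, from 4.34 to 4.76 in sgLkb1 and from 4.35 to 5.29 in sgCebpa/b/d, so neither group overlapped sgInert. The sgCebpa/b/d difference was 2.10 on the log2 scale (SE 0.33, edgeR adjusted p = 0.000185), and the sgLkb1 difference was 1.74 (SE 0.35, edgeR adjusted p = 0.00374). Summed CPM of 5 fibroblast markers was 6.19 to 100.1 in sgInert, 63.6 to 179 in sgLkb1 and 44.3 to 189.5 in sgCebpa/b/d, and its part in *Adam12* was not tested.

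*Etv5*, a transcription factor induced by ERK signaling, is also named in the paper among markers of ATII identity. *Etv5* fell in sgCebpa/b/d against sgInert, with a log2 fold change of −1.15 (SE 0.18, edgeR adjusted p = 0.000163). The part of the ATII shift in this fall was not tested. *Etv5* ran from 8.09 to 9.06 log2 CPM in sgInert and from 7.06 to 8.26 in sgCebpa/b/d, and 1 sgInert library (8.09) lay inside the sgCebpa/b/d range. Within sgCebpa/b/d the unnumbered libraries (7.06 to 7.15) lay below the MT-numbered ones (7.57 to 8.26). Among MT-numbered libraries the difference from sgInert was −1 (edgeR adjusted p = 0.000687). *Etv5* was at −0.68 (edgeR adjusted p = 0.0423) in sgLkb1, under the fold threshold. *Spred3*, an inhibitor of ERK signaling, was higher in sgLkb1 than in sgCebpa/b/d, with a log2 fold change of sgCebpa/b/d minus sgLkb1 of −1.80 (SE 0.44, edgeR adjusted p = 0.0147), on 5 to 19 against 20 to 70 counts. Against sgInert, *Spred3* differed by 0.59 in sgLkb1 (edgeR adjusted p = 0.511) and by −1.21 in sgCebpa/b/d (edgeR adjusted p = 0.0704). Among adaptors and inhibitors of the receptors, no gene was called in any of the 3 comparisons over all libraries. Among MT-numbered libraries the adaptor *Gab2*, named here after its values were seen, passed both thresholds, at 1.11 in sgLkb1 against sgInert (edgeR adjusted p = 0.0048) and −1.35 in sgCebpa/b/d against sgLkb1 (edgeR adjusted p = 0.000705). In these comparisons 3.77% and 3.65% of all genes were called.

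The 4 ligand genes *Epgn*, *Ereg*, *Areg* and *Btc* lie beside each other in 375531 bases of chromosome 5, at chr5:91027464-91035215, chr5:91074622-91093646, chr5:91139599-91148432 and chr5:91357261-91402994. Pearson's r of their log2 CPM over 19 libraries was 0.48 to 0.76 for the 6 pairs, and 0.27 to 0.69 after the group means were taken away. The *Areg* row and *Ereg* had r = 0.72 (rho = 0.66). *Tgfa* on chromosome 6 (chr6:86195223-86275719) had r = 0.09 with the *Areg* row and 0.14 with *Ereg*, and 0.37 and 0.47 after the group means were taken away. Genes elsewhere reached similar values within groups, at 0.64 for the *Areg* row with *Errfi1* and 0.59 with *Hbegf*. The libraries shared depth, scaling and animals, so these values describe the libraries only.

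Each gene was also set against all genes tested, and the 3 with the highest Pearson's r over the 19 libraries were taken, of which those named are given. *Hbegf* followed *Nr4a1* (r = 0.90), *Egr1* (r = 0.90) and *Ier2* (r = 0.89), all immediate-early genes, which cells induce within minutes of a stimulus. sgInert replicate 6, which was lowest for *Hbegf*, had *Egr1* at 7.13 and *Nr4a1* at 5.29 log2 CPM, against sgInert medians of 10.1 and 7.59. *Errfi1* followed *Rcan1* (0.91), *Ptp4a1* (0.87) and *Mbnl2* (0.85). The *Areg* row followed *Tgm1* (0.89), *Fam135a* (0.88) and *Clip4* (0.86), and *Ereg* followed, among others, *Plau* (0.86) and *Ppard* (0.85). *Plau* encodes the urokinase-type plasminogen activator and *Tgm1* a transglutaminase. For *Tgfa* these genes were *Vps36* (0.86), *Commd6* (0.84) and *St6galnac4* (0.82). For the receptors r was lower, from 0.73 to 0.80, led by *L3mbtl2* for *Egfr* (0.76), *Gas5* for *Erbb2* (0.79) and *Necap1* for *Erbb3* (0.80). With 13986 genes to choose from, the highest r is high by selection.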

How the data were processed

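RNA of FACS-sorted neoplastic cells was sequenced as paired reads from Trio RNA-Seq libraries, and samples with an RNA integrity number below 7 were left out by the authors. Per the labels and methods, the authors aligned reads with STAR 2.6.1d to mm10 and estimated expected counts and TPM per gene with RSEM 1.2.30. The deposited expected counts are not normalized and need not be whole, and they were rounded here. The deposited TPM are corrected for transcript length and sum to the same total in every library. The authors used DESeq2 1.26.0. Their 3 tables of fold changes and p-values and their table of normalized counts were not used. Of the 53558 rows, 56 hold transcripts of several GENCODE genes.

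Groups, sexes and replicate numbers came from the labels. The 8 genes, the pathway lists and the marker lists were chosen with earlier results of these data known. Libraries with totals of 2760731 to 9944134 were compared in pairs, and no pair of a group differed by less than sampling noise (chi-square per gene 6.91 to 75.2 over 52 pairs). The filterByExpr filter used a minimum count of 10 and a minimum total of 15, and counts were scaled by TMM and tested with glmQLFit and glmQLFTest in 1 model of all 19 libraries without a covariate, in R 4.3.3 with edgeR 4.0.16. Adjusted p-values are Benjamini-Hochberg values over 13986 genes and cover counting error and the spread between libraries. Log2 CPM used a prior count of 2. Alternatives used DESeq2 1.42.0 and limma 3.58.1, other filters, covariates and libraries. Figures were drawn with matplotlib 3.10.9. Genes were named if they were among the 8, among the lists and called, or among the 3 with the highest r. An allele that all mice share and 1 gene that the last rule names are not reported here. Sequences came from RefSeq (GRCm38.p6) and coordinates from GENCODE M21, and the 50 bases after each start were left out. On simulated counts for sgCebpa/b/d against sgInert (13679 genes), edgeR recovered 82.4% of 91 genes changed by 1.5 on the log2 scale and 96.3% of 109 changed by 2. The differences of the 8 genes over all libraries were smaller than these changes. The rates therefore do not tell how often differences of that size, or those in the other comparisons, would be found.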

Additional observations from a re-analysis of the deposited data

Results flagged for a closer look

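In 2 of 24 groups of libraries (8 genes in 3 groups) 1 library stood apart by Dixon's criterion, which chance alone gives in about 1 of 20 groups. The *Areg* row in sgLkb1 replicate 4 was at 9.10 log2 CPM with the nearest library at 8.55, a gap of 0.877 of the group's range. *Hbegf* in sgInert replicate 6 was at 5.13 log2 CPM with the nearest library at 6.37, a gap of 0.569 of the range. Without sgLkb1 replicate 4 the *Areg* row differed from sgInert by 0.80 (edgeR adjusted p = 0.0895).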

How the results depend on the processing

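Among 344 repeats of the log2 fold changes under other settings, 302 kept their direction and their side of an adjusted p of 0.05, 11 passed it newly, 10 lost it and 21 changed sign. Dropping the fold threshold gave 1 of the 7 named genes, *Tgfa*, as past in sgCebpa/b/d against sgInert, and every other setting gave 0 called in each comparison. The sign changes were in differences whose interval held 0, and the cause was not tested. For sgCebpa/b/d against sgInert the *Areg* row was −0.04 with animals summed and the unnumbered libraries as 1 animal, and −0.02 to 0.30 when single libraries were left out. For sgLkb1 against sgInert, *Egfr* was −0.02 with limma-voom, −0.19 with sex as a covariate, −0.10 with animals summed, −0.03 with a replicate block and −0.32 to 0.32 with single libraries left out. *Erbb3* was 0.17 on log2(TPM + 1), 0.16 with the title series as a covariate, 0.19 in MT-numbered and 0.04 in numbered libraries, and −0.12 to 0.03 with libraries left out. *Errfi1* was 0.06 with limma-voom, 0.25 on log2(TPM + 1), 0.01 without a filter, 0.14 with the title series, 0.05 in MT-numbered libraries and −0.13 to 0.13 with libraries left out. For sgCebpa/b/d against sgLkb1, *Hbegf* was −0.14 on log2(TPM + 1), −0.19 in MT-numbered and in numbered libraries and −0.05 to 0.13 with libraries left out. *Egfr* was −0.07 on log2(TPM + 1) and −0.07 to 0.67 with libraries left out, and *Erbb3* was −0.14, −0.01 in MT-numbered and in numbered libraries, and −0.03 to 0.12. On log2(TPM + 1) the median over all genes was itself 0.03, 0.18 and −0.16 in the 3 comparisons. Replicate numbers did not pair the libraries, since same-numbered libraries had correlations of −0.147 to 0.232 and 3 of 17 correlated best with their own number. With the replicate number as a block, 0 of 7 genes were called, the *Areg* row differed by 0.89 in sgLkb1 against sgInert (edgeR adjusted p = 0.0383) and *Tgfa* by −0.51 in sgCebpa/b/d (edgeR adjusted p = 0.0256). Counting the *Areg* row among the genes was added after seeing the data.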
